A study of Mus musculus with 6 samples.

Results

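The B cell and plasma cell genes described here are Cd79a, Cd79b, Ms4a1, Cd22, Cr2, Fcer2a, Igj, Pou2af1 and Tnfrsf17, chosen by name as genes that mark B lymphocytes and the antibody-secreting plasma cells they become. They are 9 of the 23621 named genes on the array. Together they were read by 12 probes of 60 bases, each printed as a single spot. Cd79a, Cd22 and Cr2 had 2 probes each and the other 6 genes had 1 probe each. Igj is the array's name for the gene now called Jchain.

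The tissue was jejunum, the middle stretch of the small intestine, from male C57BL/6J mice. A first group of 3 mice received 100 mg/kg VND3207, a compound known here by its code name, into the stomach, and a second group of 3 mice received the same volume of vehicle. Both groups were irradiated with 9 Gy after 0.5 h, and tissue was collected 6 h after that, so the comparison asks what VND3207 added in irradiated jejunum. Total RNA of each mouse was hybridised to its own Agilent array with 1 colour. The ages of the mice, and whether the pieces of jejunum held Peyer's patches, are not given in the sources used here. No unirradiated mice were analysed here.

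B cells recognise antigen through a surface immunoglobulin that signals through the paired chains encoded by Cd79a and Cd79b, and co-receptors such as CD21 (Cr2) and CD22 (Cd22) raise or dampen that signal. In the small intestine, B cells gather in lymphoid follicles, while plasma cells lie in the connective tissue of the villi and secrete IgA, whose units are joined by the J chain (Igj) and carried across the epithelium by the polymeric immunoglobulin receptor. In bulk tissue, fewer cells of a type and less RNA per cell cannot be told apart.

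The probes behind the results that follow are identified by their first 30 bases, in lower case and 5′ to 3′, as the deposited scanner files give them. Cr2 probe 1 and the probe of Fcer2a are shown because they were lower after VND3207, and Cr2 probe 2 because it was too dim to test. Both probes of Cd79a are shown because neither passed and their differences lay 0.46 apart.
Cr2 probe 1: tggcctacagattgttcttgtgatatttca
Cr2 probe 2: catgacaataatggactagaactctgaact
Cd79a probe 1: cctcctcccagatctgtcatggccacttaa
Cd79a probe 2: tagaaaacaacatattaaaacgctcctgtg
Fcer2a: atctgggatgagtcctcccatcaagtttgc
The files place Cr2 probe 1 at chr1:196965532-196965591 and Cr2 probe 2 at chr1:196963012-196963071, both on the minus strand of mouse build mm9 and 2460 bases apart. Cd79a probe 1 lies at chr7:25686823-25686882 and Cd79a probe 2 at chr7:25684357-25684614, both on the plus strand and 2208 bases apart. Cd79a probe 2 spans 258 bases of the genome with 60 bases of probe. The Fcer2a probe lies at chr8:3682343-3682402 on the minus strand. Exons and untranslated regions of that build were not used here.

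Values are the log2 of each spot's background-subtracted intensity minus the 75th percentile of its array, so that 0 is the 75th percentile, and a value says nothing about another probe's level. A probe was tested where 3 or more of the 6 arrays had it well above background. Of 59305 non-control spots, 58.83 to 61.43% were well above background on the VND3207 arrays and 66.68 to 70.03% on the vehicle arrays. All VND3207 arrays were on 1 slide and scan and all vehicle arrays on another, so slide, scan and group cannot be told apart. The number of arrays limits the precision.

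After VND3207, Cr2 and Fcer2a, a pair of receptors of mature follicular B cells, were lower than after vehicle, by 0.84 and 0.63 on the log2 scale, and no member was higher. Of the 10 member probes tested, which cover 8 of the 9 genes, 2 passed the threshold as lower and 0 as higher (limma, Benjamini-Hochberg adjusted p under 0.05 over 36098 probes). Over all tested probes, 15.5% passed, 14.6% as lower and 0.925% as higher. The same 2 member probes were the only ones whose 2 groups did not overlap. Over all tested probes, 24.9% did not overlap with VND3207 lower and 9.41% with VND3207 higher. The share of members that passed was therefore near the share of all probes, though 10 probes place it only roughly. These 10 were well above background on all 6 arrays, while the tested probes as a whole needed only 3. The median difference was -0.09 over the member probes and -0.06 over all tested probes.

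**Figure D1:**
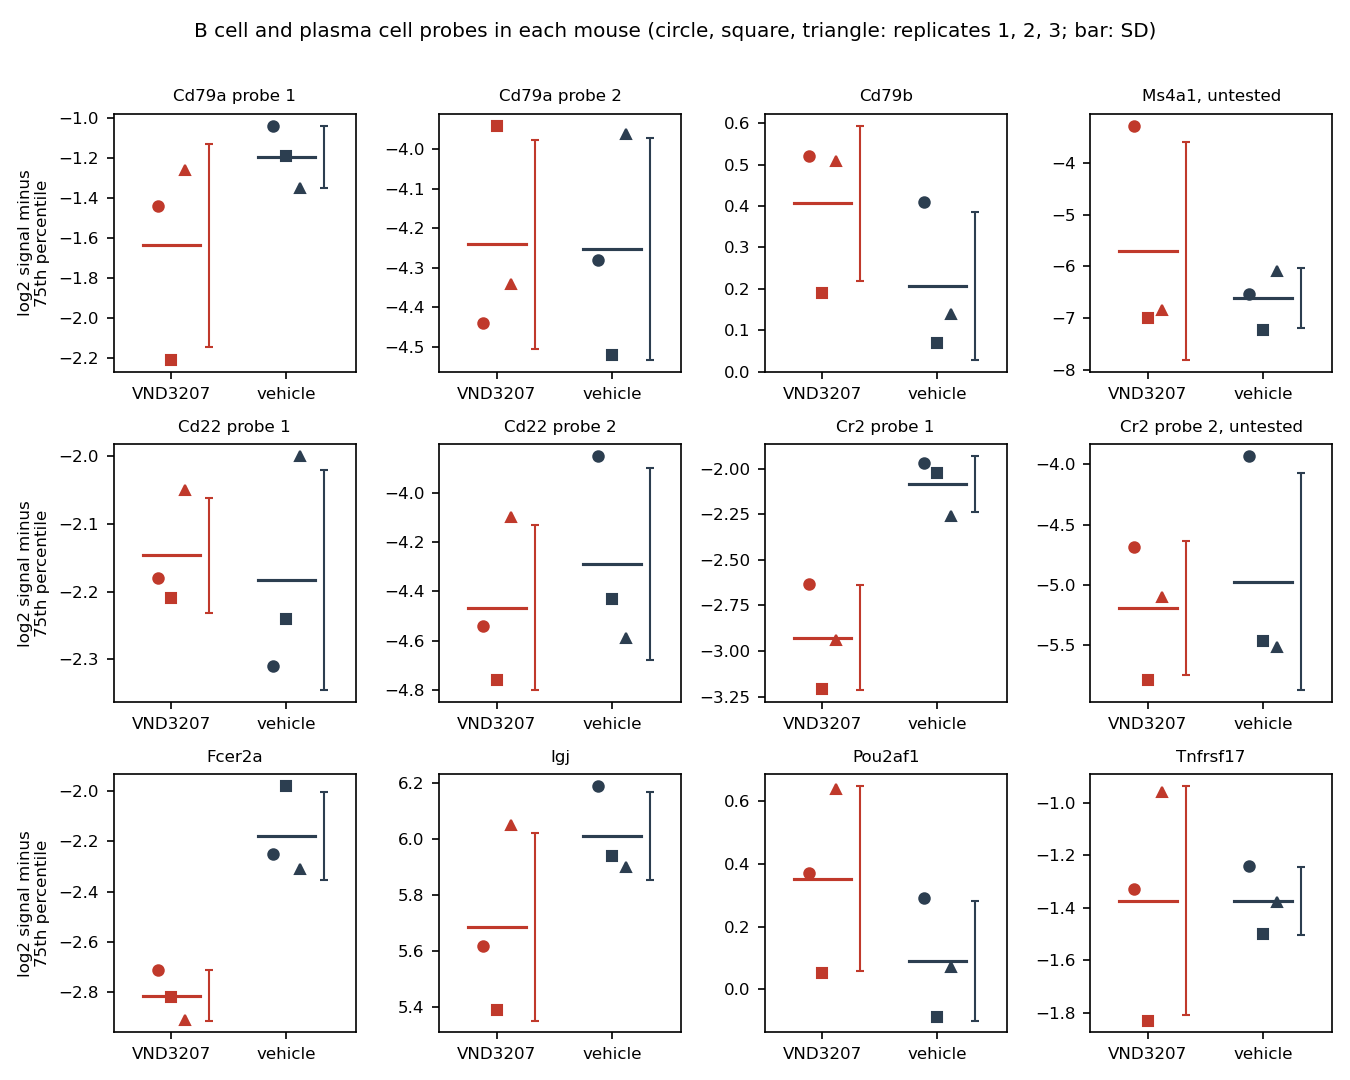
Log2 signal minus the array's 75th percentile (vertical axis, with its own range in each panel) of the 12 member probes in each mouse, VND3207 on the left and vehicle on the right, with the group mean as a horizontal line and the SD as a bar beside it. The groups do not overlap for Cr2 probe 1 (-3.21 to -2.63 after VND3207, -2.26 to -1.97 after vehicle) or for Fcer2a (-2.91 to -2.71 after VND3207, -2.31 to -1.98 after vehicle), and they overlap in the other 10 panels.

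Cd79a and Cd79b encode the signalling chains of the B cell antigen receptor. Cd79a probe 1 read -1.44, -2.21 and -1.26 in the 3 VND3207 mice, against -1.04, -1.19 and -1.35 in the 3 vehicle mice. VND3207 replicate 2 was the lowest mouse by a wide margin, and VND3207 replicate 3 lay within the vehicle range. The difference was -0.44 (SE 0.26, adjusted p = 0.351). Cd79a probe 2 read -4.44, -3.94 and -4.34 in VND3207 mice, against -4.28, -4.52 and -3.96 in vehicle mice. Here VND3207 replicate 2, the lowest mouse on probe 1, was level with vehicle replicate 3 at the top (-3.94 and -3.96). Before scaling, vehicle replicate 3 was the higher of these 2 mice, with processed intensities of 53.9 and 44.16. The difference of probe 2 was 0.02 (SE 0.20, adjusted p = 0.968), so the 2 probes of Cd79a lay 0.46 apart in their differences.

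Cd79b read 0.52, 0.19 and 0.51 in VND3207 mice, against 0.41, 0.07 and 0.14 in vehicle mice. All 6 mice lay in a narrow band and the groups overlapped. The difference was 0.20 (SE 0.15, adjusted p = 0.457), with a 95% interval from -0.16 to 0.56. The antigen receptor chains thus showed no difference beyond the spread between mice on any of their 3 probes.

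Cr2 encodes, in the mouse, both complement receptors CD21 and CD35, which bind complement-coated antigen on B cells and on follicular dendritic cells. Cr2 probe 1 read -2.63, -3.21 and -2.94 in VND3207 mice, against -1.97, -2.02 and -2.26 in vehicle mice. Every VND3207 mouse was below every vehicle mouse. The means were -2.93 ± 0.29 after VND3207 and -2.08 ± 0.16 after vehicle (SD, n = 3 each), a level in VND3207 mice of 0.557 times that in vehicle mice. Cr2 fell by 0.84 (SE 0.17, limma adjusted p = 0.024), with a 95% interval from -1.27 to -0.42.

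Cr2 probe 2 read -4.69, -5.79 and -5.10 in VND3207 mice, against -3.93, -5.47 and -5.52 in vehicle mice. Vehicle replicate 1 was the highest and VND3207 replicate 2 the lowest, and the groups overlapped. This probe was well above background on 1 array of each group and was not tested, so no difference is given.

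Fcer2a encodes CD23, the low-affinity IgE receptor of mature B cells, which follicular dendritic cells also carry. It read -2.71, -2.82 and -2.91 in VND3207 mice, against -2.25, -1.98 and -2.31 in vehicle mice. Again every VND3207 mouse was below every vehicle mouse. The means were -2.82 ± 0.10 after VND3207 and -2.18 ± 0.18 after vehicle (SD, n = 3 each). Fcer2a fell by 0.63 (SE 0.13, limma adjusted p = 0.0224), with a 95% interval from -0.95 to -0.32.

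Neither call held under every way of processing the data. With quantile normalization in place of the 75th percentile, Cr2 probe 1 differed by -0.60 (adjusted p = 0.0751) and Fcer2a by -0.40 (adjusted p = 0.113). Under that scaling 8.97% of all tested probes were lower and 2.59% higher. With the normexp background correction, Cr2 differed by -0.51 (adjusted p = 0.0294) and Fcer2a by -0.37 (adjusted p = 0.0855). Without VND3207 replicate 2, VND3207 replicate 3, vehicle replicate 1 or vehicle replicate 2, neither probe passed, with adjusted p from 0.0587 to 0.0914 for Cr2 and from 0.0517 to 0.0755 for Fcer2a. Across 17 alternatives the difference of Cr2 probe 1 ran from -0.99 to -0.36 and that of Fcer2a from -0.70 to -0.22, always below 0. The exact two-sided permutation test over the 20 splits of 6 mice gave p = 0.1 for each gene, the smallest p that 3 against 3 allows.

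Cd22 encodes an inhibitory co-receptor that restrains antigen receptor signalling. Cd22 probe 1 read -2.18, -2.21 and -2.05 in VND3207 mice, against -2.31, -2.24 and -2.0 in vehicle mice. The 6 mice were closely matched and the groups overlapped. The difference was 0.03 (SE 0.12, adjusted p = 0.893), with a 95% interval from -0.26 to 0.33. Cd22 probe 2, 13804 bases away, read -4.54, -4.76 and -4.10 in VND3207 mice, against -3.85, -4.43 and -4.59 in vehicle mice, again overlapping. Its difference was -0.17 (SE 0.25, adjusted p = 0.727).

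Ms4a1 encodes CD20, a membrane protein found on B cells and lost when they become plasma cells. It read -3.27, -7.00 and -6.85 in VND3207 mice, against -6.53, -7.24 and -6.08 in vehicle mice. VND3207 replicate 1 was the only array on which its probe, at chr19:11325367-11325426 on the minus strand of mm9, was well above background. Its processed intensity there was 79.8, against 4.57 to 12.44 on the other 5 arrays. Ms4a1 was therefore not tested, and no fold is given.

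Pou2af1 encodes OBF-1, a transcriptional coactivator that works with octamer-binding factors at B cell promoters. It read 0.37, 0.05 and 0.64 in VND3207 mice, against 0.29, -0.09 and 0.07 in vehicle mice. VND3207 replicate 3 was the highest mouse and the groups overlapped. The difference was 0.26 (SE 0.19, adjusted p = 0.442).

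Tnfrsf17 encodes BCMA, a survival receptor of plasma cells. It read -1.33, -1.83 and -0.96 in VND3207 mice, against -1.24, -1.5 and -1.38 in vehicle mice. The highest and the lowest mouse were both VND3207 mice, on either side of the vehicle range. The difference was 0.00 (SE 0.23, adjusted p = 0.997).

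Igj encodes the J chain that joins secreted IgA and IgM units. It read 5.62, 5.39 and 6.05 in VND3207 mice, against 6.19, 5.94 and 5.90 in vehicle mice. VND3207 replicates 1 and 2 lay below all vehicle mice and VND3207 replicate 3 lay among them. The difference was -0.32 (SE 0.19, adjusted p = 0.364). With Tnfrsf17, this left both plasma cell members without a difference beyond the spread between mice, and whether they differed from Cr2 and Fcer2a in their response was not tested.

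**Figure D2:**
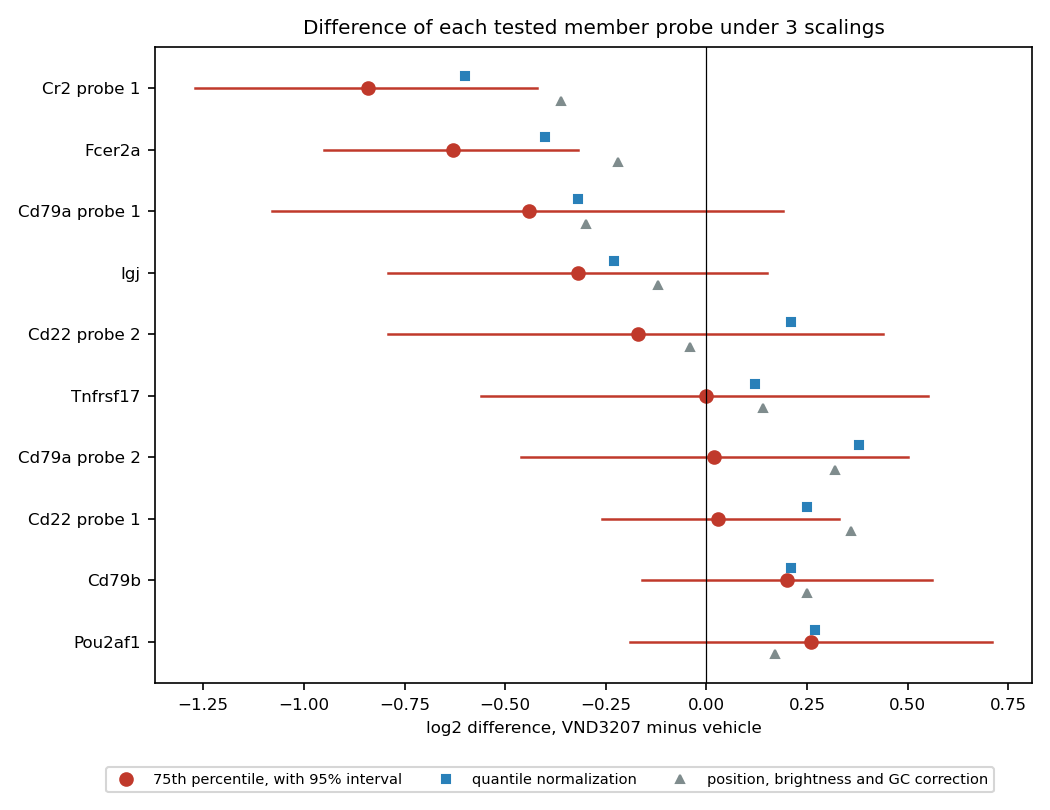
Log2 difference, VND3207 minus vehicle (horizontal axis), of the 10 tested member probes (rows), with the 95% interval of the 75th percentile scaling as a line and the differences under quantile normalization and under a correction for position, brightness and GC content as squares and triangles. Cr2 probe 1 and Fcer2a lie below 0 under all 3 scalings and come closer to 0 with the correction (-0.36 and -0.22).

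The 2 lower probes sat in a range of brightness where many probes were lower. Tested probes with a mean between -3 and -1.5 had a median difference of -0.11, and 17.5% of them passed as lower. Below -3 the median was -0.38 and 27.1% passed, while between 0 and 3 it was 0.05 and 3.09% passed. Position on the array went with the difference as well. Among the 456 probes within 0.5 log2 of the mean of Cr2 probe 1 and within 20 rows of its spot in row 358, the median difference was -0.30, the lower quartile -0.85 and 37.5% passed as lower. The 491 such neighbours of Fcer2a, in row 292, had a median of -0.27 and a lower quartile of -0.79, and 31.6% passed as lower. Cr2 probe 1 and Fcer2a thus lay within the interquartile range of their neighbours. Cd22 probe 1, in row 366, had neighbours with a median of -0.22, of which 32.6% passed as lower, and its own difference was 0.03. For Cd79a probe 1, in row 41, the neighbours had a median of 0.03 and 4.86% passed as lower.

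After a smooth correction for position, brightness and GC content, fitted over all tested probes, Cr2 probe 1 differed by -0.36 (adjusted p = 0.254) and Fcer2a by -0.22 (adjusted p = 0.3), and 0 member probes passed in either direction. Over all tested probes, 5.52% were then lower and 2.76% higher. The part of position in the result was not tested beyond these values.

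**Figure D3:**
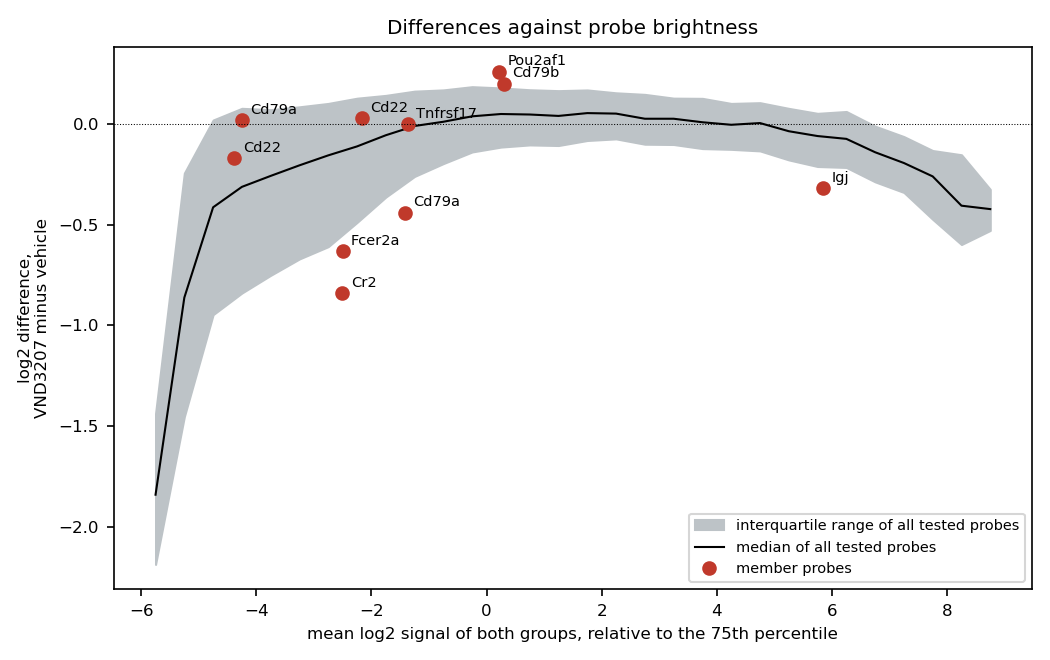
Log2 difference, VND3207 minus vehicle (vertical axis), against the mean log2 signal of both groups relative to the 75th percentile (horizontal axis) for the 10 tested member probes (points), over the median of all tested probes (line) and their interquartile range (grey). The line is near 0 between 0 and 3 and falls below it for the dimmest and brightest probes, and Cr2, Fcer2a, Igj and 1 probe of Cd79a lie below the grey band.

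The members did not move as a block from mouse to mouse. With each gene's brightest tested probe centred on its mean over the 6 mice, the median member stood at -0.02, -0.39 and 0.18 in the 3 VND3207 mice and at 0.19, 0.01 and 0.06 in the 3 vehicle mice. VND3207 replicate 2 was the lowest mouse for 4 of the 8 genes, namely Cr2, Cd79a, Igj and Tnfrsf17, and it was the lowest for 19.1% of all tested probes. The root mean square distance between centred profiles ran from 0.10 for Cd79b and Pou2af1 to 0.59 for Cr2 and Pou2af1. Cr2 and Fcer2a lay 0.20 apart, and Igj lay 0.17 from Cd79a and 0.19 from Tnfrsf17. These distances are over the same 6 arrays and are descriptions only.

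**Figure D4:**
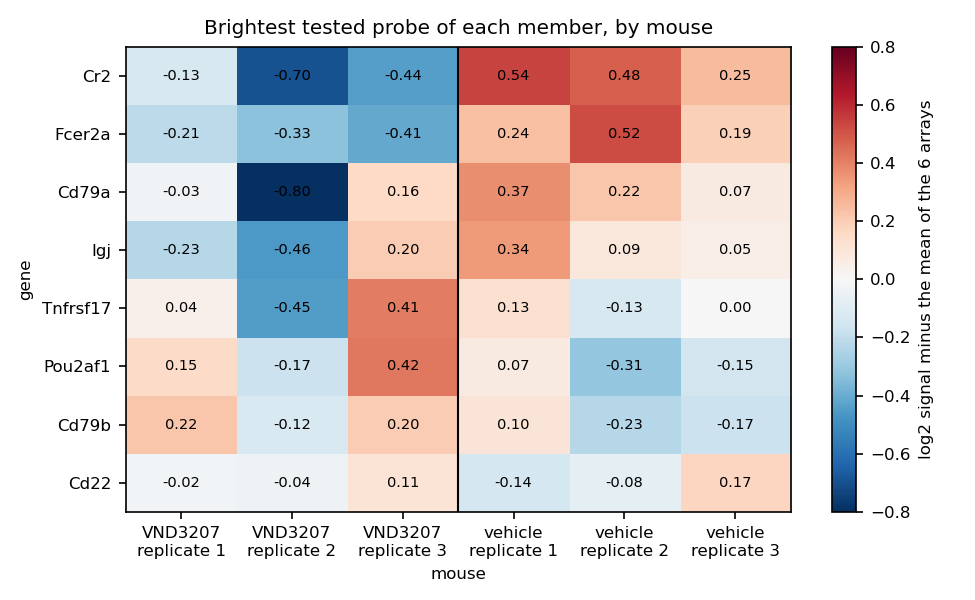
Log2 signal minus the mean of the 6 arrays (colour and printed value) for the brightest tested probe of each of 8 members (rows) in each mouse (columns, VND3207 left of the line and vehicle right of it). Cr2 and Fcer2a are below 0 in all 3 VND3207 mice and above 0 in all 3 vehicle mice, and VND3207 replicate 2 holds the lowest value, -0.80 for Cd79a.

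The 5 genes closest to the median profile of the members, out of 20791 candidates well above background on all 6 arrays, were Flt3, Aif1, Coq10b, Frmd3 and Rps4l. Their root mean square distances were 0.0273, 0.0352, 0.0468, 0.0567 and 0.0606, against a median of 0.264 over all candidates. Flt3, a receptor of early haematopoietic and dendritic cells, read -2.54, -2.89 and -2.39 in VND3207 mice and -2.37, -2.50 and -2.49 in vehicle mice. Aif1, a macrophage gene, read 2.18, 1.71 and 2.32 in VND3207 mice and 2.37, 2.20 and 2.21 in vehicle mice. Genes near a profile share its highs and lows by construction.

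Other genes of B cells, plasma cells and their surroundings were taken from 12 lists of 125 genes, of which 115 were measured, each by its brightest tested probe. Another tested probe of a gene could differ from it in either direction. The lowest probe differed by -1.23 for Bcl11a, -1.01 for Tnfrsf13b and -1.44 for Mef2b, against 0.17, 0.02 and -0.18 for the brightest. The highest differed by 0.67 for Arhgdib, 0.51 for Cd48 and 0.41 for Ccl19, against 0.08, -0.46 and -0.21. Of the 115 measured genes, 0 were higher and 9 lower after VND3207, or 7.83% lower, beside 14.6% of all tested probes. The first share counts named genes by their brightest tested probe. The second counts every tested probe, with unnamed and dim ones, so the 2 shares are not of like sets. With quantile normalization 2 were higher (Bank1 and Itga4) and 3 lower (H2-Ob, Basp1 and Cd4), and with the position correction 1 was higher (Tnfrsf13c) and 4 lower (H2-Ob, Basp1, Cd4 and Itgam). In the list of antigen receptor signalling, 0 of 14 measured genes passed in either direction, and the median difference was 0.03. Bank1, a B cell scaffold protein gene, differed by 0.38 (SE 0.15, adjusted p = 0.178) without overlap of the groups, and by 0.73 with quantile normalization (adjusted p = 0.0343). Blnk, the adaptor that links the receptor to downstream enzymes, differed by 0.01 (SE 0.21) and Plcg2, the phospholipase it recruits, by -0.20 (SE 0.13). Of 11 B lineage transcription factors 0 passed, with a median of 0.13. Irf8 differed by 0.16 (SE 0.11) and Tcf3 by 0.06 (SE 0.10).

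Among 12 follicle and survival genes, H2-Ob alone passed, and the list's median was 0.11. H2-Ob encodes the beta chain of H2-O, which modulates antigen loading in B cells. It read -3.71, -4.26 and -4.00 in VND3207 mice, against -2.28, -2.08 and -2.67 in vehicle mice, and the groups did not overlap. It fell by 1.65 (SE 0.21, limma adjusted p = 0.00464), and the call held with quantile normalization (-1.36, adjusted p = 0.0142) and with the position correction (-1.26, adjusted p = 0.0212). A second tested probe of H2-Ob differed by -0.05. Cd74, the invariant chain of antigen presentation, differed by 0.27 (SE 0.25), and Ltb, the lymphotoxin chain that organises follicles, by -0.17 (SE 0.17).

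Of 8 germinal centre genes 2 were lower, with a list median of -0.06. Basp1, a membrane protein gene used as a germinal centre marker and expressed in other tissues too, read -1.36, -1.68 and -1.37 in VND3207 mice, against -0.29, 0.17 and -0.02 in vehicle mice. The groups were far apart, and Basp1 fell by 1.42 (SE 0.16, limma adjusted p = 0.0036). Bcl6, the master factor of germinal centre B cells, differed by 0.52 (SE 0.25, adjusted p = 0.265) and Fas by -0.14 (SE 0.14, adjusted p = 0.598). Of 7 genes of follicle stroma and follicle epithelium 0 passed, with a median of -0.11, and their brightest, Ltbr and Tnfrsf11a, differed by -0.29 (SE 0.13) and 0.15 (SE 0.18).

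Of 14 plasma cell genes 0 passed in either direction, with a median of 0.03. Xbp1, the secretory factor that epithelium also expresses, read 5.79, 5.95 and 5.85 in VND3207 mice, against 5.88, 5.88 and 5.86 in vehicle mice, a difference of -0.01 (SE 0.09). Edem1, which clears misfolded proteins, differed by -0.02 (SE 0.10). The 3 genes of IgA transport had a median of -0.35 and 0 passed. Pigr, the polymeric immunoglobulin receptor of the epithelium, read 7.22, 7.35 and 7.68 in VND3207 mice, against 7.89, 8.42 and 8.03 in vehicle mice. Its groups did not overlap, and the difference was -0.69 (SE 0.19, adjusted p = 0.0616), or -0.35 with quantile normalization. Ccl25, the epithelial chemokine that draws IgA plasma cells, differed by -0.35 (SE 0.11, adjusted p = 0.085), and by -0.02 with quantile normalization. The 3 probes of Ccl25 ran from -0.35 to 0.36, and the other probe of Pigr differed by -0.21. At the brightness of these genes, a mean between 6 and 8, the median over all tested probes was -0.15 and 13.6% passed as lower.

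Immunoglobulin genes were read by 11 probes, of which 7 were tested. Probes of this multigene family can bind transcripts of several members, so the names are uncertain. The brightest, named Igh-VJ558, read 8.65, 8.79 and 8.89 in VND3207 mice, against 9.20, 9.36 and 9.12 in vehicle mice. The groups did not overlap, and the difference was -0.45 (SE 0.12, adjusted p = 0.0537). The next 2 Igh-VJ558 probes by brightness differed by -0.33 (SE 0.13, adjusted p = 0.153) and 0.01 (SE 0.25, adjusted p = 0.981). With the correction for position, brightness and GC content the direction of the first 2 turned, to 0.16 and 0.26, and the last differed by 0.05. Among all tested probes with a mean above 8, the median difference was -0.42 and 44.4% passed as lower. A dim probe named Igk-C was well above background on all 3 vehicle arrays and on 0 of the 3 VND3207 arrays, so it entered the fit through its higher group alone and its p is not used. Its means were -6.73 after VND3207 and -4.64 after vehicle, which bounds it at least 1.17-fold lower after VND3207. That bound sets the vehicle mean against the lowest signal well above background on each VND3207 array. It leaves out the spread between mice. Vehicle replicate 3 read -4.97, and the lowest such signals on the VND3207 arrays were -5.134, -4.776 and -4.714. With the correction for position, brightness and GC content the difference of the Igk-C probe went from -2.09 to -0.78.

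Markers of other cells moved in part with the groups. Of 12 T cell genes 1 was lower, and the list median was 0.14. That gene, Cd4, a co-receptor of helper T cells, read 4.66, 4.57 and 4.64 in VND3207 mice, against 6.08, 5.75 and 5.56 in vehicle mice. Cd4 fell by 1.18 (SE 0.15, limma adjusted p = 0.00519), while Cd3e, a chain of the T cell receptor complex, differed by 0.04 (SE 0.16). The summed linear signal of the T cell list, in units of the array's 75th percentile, was 39.5 to 47.5 after VND3207 and 62.6 to 84.2 after vehicle, and 15.7 to 22.6 after VND3207 and 15.4 to 17.9 after vehicle without Cd4. Of 8 genes shared by all leukocytes 0 passed, with a median of 0.08 and sums of 19.4 to 29.4 after VND3207 and 21.7 to 25.6 after vehicle. Their brightest genes, Cd52 and Coro1a, differed by 0.07 (SE 0.18) and 0.08 (SE 0.19).

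Of 10 macrophage, dendritic cell and neutrophil genes, Itgam, an integrin chain of myeloid cells, was lower by one probe (-0.75, SE 0.18, limma adjusted p = 0.0421), with -0.71 and adjusted p = 0.0549 under quantile normalization. Its 3 probes ran from -0.75 to 0.55. Csf1r, the macrophage growth factor receptor, differed by 0.15 (SE 0.18). That list's median was 0.21, with 8 of 10 genes above 0. Its sums were 35.9 to 41.8 after VND3207 and 41.6 to 58.5 after vehicle, and 17 to 25.6 after VND3207 and 16.3 to 22.5 after vehicle without Itgam.

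Of 9 epithelial genes 4 were lower, namely Fabp2 (-0.58), Krt8 (-0.47), Krt20 (-0.44) and Vil1 (-0.36), and the list median was -0.36. These 4 had means above 8, where the median over all tested probes was -0.42 and 44.4% passed as lower. Sis and Lgals4 also had means above 8 and did not pass. Epcam, Cdh1 and Cdx2 had means between 3 and 6, where 3.68% of all tested probes passed as lower. The list thus mixes levels of brightness, and its count of 4 in 9 cannot be set against either share. Lgals4, a galectin, differed by -0.42 (SE 0.14, adjusted p = 0.105). The list's sums were 1830 to 2020 after VND3207 and 2430 to 2750 after vehicle. With quantile normalization Fabp2, Krt8, Krt20 and Vil1 differed by -0.13, -0.05, 0.00 and 0.03, and the list median was 0. Of 7 smooth muscle and stroma genes 0 passed, with a median of -0.48 and sums of 57.3 to 166 after VND3207 and 136 to 166 after vehicle. The lower end came from VND3207 replicate 3, in which Acta2, the smooth muscle actin, read 3.86, against 5.55 to 5.80 in the other 5 mice, and Tagln, which encodes an actin-binding protein, read 4.17, against 5.81 to 6.11. The part of these other cells in the differences of Cr2 and Fcer2a was not tested.

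**Figure D5:**
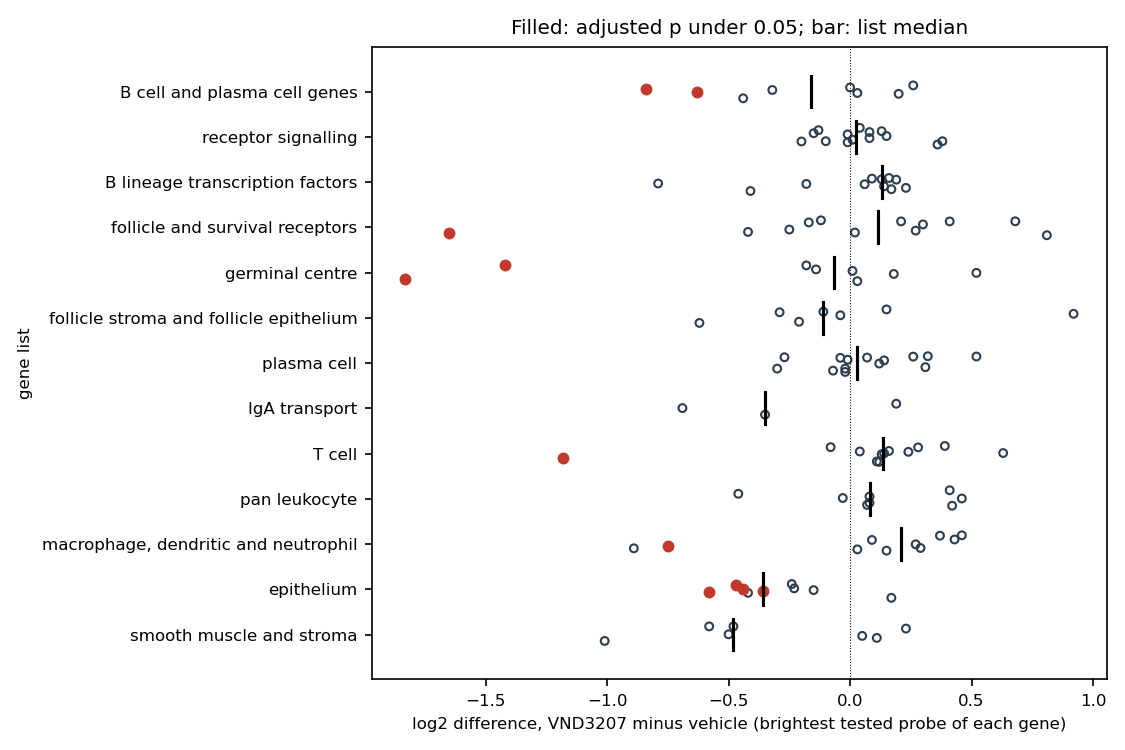
Log2 difference, VND3207 minus vehicle (horizontal axis), of each measured gene by its brightest tested probe (points) in the B cell and plasma cell genes and 12 other lists (rows), with filled points for an adjusted p under 0.05 and a bar at each list's median. The plasma cell and receptor signalling lists sit around 0 with 0 filled points, and the epithelial list, with 4 filled points, has a median of -0.36.

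The members share the B cell lineage, so their promoters were searched for the octamer ATGCAAAT and its reverse complement ATTTGCAT, the element through which octamer factors and the Pou2af1 product act. RefSeq (GRCm38.p6) gave 9 promoter windows for 7 of the 9 genes, each from 250 bases before to 50 bases after a start; Cd79b and Ms4a1 were not among them. The octamer was in 0 of 9 windows, beside 570 of 32851 windows of all genes (1.74%). Its core ATGCAAA, searched on both strands and contained in the octamer, was in 0 of 9 and in 1520 of all windows (4.63%). At shares this low, 9 windows are too few to show whether the members have fewer matches than other genes. These letters were absent from the windows searched, which says nothing about binding elsewhere.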

How the data were processed

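Jejunum RNA of 6 mice (3 given VND3207, 3 given vehicle) was measured on 6 arrays. Per the file headers, the deposited intensity is the processed Cy3 signal of Agilent Feature Extraction 10.7.1.1, detrended and background-subtracted. The deposited value table holds log2 values, used as an alternative; how the authors made it is not given in the sources used here. Control spots and outlier flags were left out. Each log2 signal had its array's 75th percentile subtracted. Of 55681 probes, 36098 well above background on at least 3 arrays were fitted together with limma 3.58.1 in R 4.3.3 (group only, 2-sided, Benjamini-Hochberg, threshold 0.05). Replicates are the labels' separate mice of a group. The position correction used mgcv 1.9.3. The fit was tested on simulated data.

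Members and lists were chosen with earlier results of these data known. Every member probe is described. Of each list the text names genes past the threshold without overlap (at most 4) and the 2 brightest; of the immunoglobulin probes the 3 brightest and up to 3 past the threshold; and the 5 nearest profiles. One germinal centre gene that the rule names is not reported here. Bank1, Tnfrsf13c and Itga4, outside that rule, were chosen after their values were seen, as were the genes named for a differing probe. The remaining epithelial genes are named only for their brightness.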

Additional observations from a re-analysis of the deposited data

How the results depend on the processing

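Of 17 alternatives, Cr2 probe 1 passed as lower in 9 and Fcer2a in 8. Against 2 lower member probes, 0 were lower with quantile normalization, the deposited value table, the replicate block and the position, brightness and GC correction, and 1 with the normexp background. Leaving out a mouse gave 0 to 2. No member probe passed as higher under any of these settings. Over all tested probes, against 5259 lower, 3238 were lower with quantile normalization, 2832 with normexp, 3176 with the deposited table, 2923 with probes well above background on all 6 arrays, 3410 with the replicate block, 1994 with the correction, and 2966 to 5071 without a mouse, the lowest without vehicle replicate 2. Against 334 higher, 934 were higher with quantile normalization, 919 with the deposited table, 663 with no filter on dim probes, 143 with the replicate block, 998 with the correction, and 126 to 287 without a mouse, with 126 without VND3207 replicate 1, 151 without VND3207 replicate 2, 161 without vehicle replicate 2 and 181 without vehicle replicate 3. Higher probes made up 5.97% of calls, 22.4% with quantile normalization and 33.4% with the correction. The cause of these shifts was not tested. Searching the heptamer core in place of the octamer raised the matches over all promoter windows to 1520, against 570, since it is contained in the octamer. Same-numbered mice of the 2 groups had deviations that correlated at 0.13, -0.11 and -0.05. Those of differently numbered mice ran from -0.26 to 0.3. With this spread the values showed no sign of pairing by number but cannot settle it. Tests of dim probes are limited by signal over background, which left Ms4a1 and Cr2 probe 2 untested. The counts by mouse, of neighbouring probes and of list genes under other scalings, and the sums without 1 gene, were chosen after seeing the data.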

Other observations

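Single mice of both groups stood apart for several groups of genes. In VND3207 replicate 1, the mouse in which Ms4a1 was well above background, Cxcl13, the chemokine that draws B cells into follicles, read 0.35, against -1.40 and -2.26 in the other VND3207 mice and -2.28 to -1.53 in vehicle mice. The same mouse held the highest value of 6 of 12 follicle and survival genes, beside 11.9% of all tested probes. Cr2 probe 1 and Fcer2a read -2.63 and -2.71 in this mouse. On both probes that was below every vehicle mouse and the highest value among the VND3207 mice. Whether these values go with those of the follicle genes was not tested.

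VND3207 replicate 2 was the lowest mouse for 6 of 14 plasma cell genes, 6 of 14 receptor signalling genes and 5 of 8 genes shared by leukocytes, beside 19.1% of all tested probes. VND3207 replicate 3 was the highest for 8 of 12 T cell genes, beside 15.3% of all tested probes, and the lowest for 5 of 7 smooth muscle and stroma genes, beside 14.7%. Vehicle mice stood apart as well. Vehicle replicate 2 was the highest for 5 of 7 genes of follicle stroma and follicle epithelium, beside 24.2% of all tested probes. It was also the highest for 5 of 9 epithelial genes. Vehicle replicate 3 was the lowest for 5 of 12 T cell genes, beside 17% of all tested probes. Itga4, an integrin chain of gut-homing lymphocytes, read -0.06, -0.47 and -0.39 in VND3207 mice, against -0.87, -0.78 and -0.82 in vehicle mice, without overlap (difference 0.52, SE 0.13, limma adjusted p = 0.0519). It differed by 0.56 with quantile normalization (adjusted p = 0.0468) and by 0.35 with the position correction (adjusted p = 0.148). Genes in these 2 paragraphs were picked after their values were seen.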
